A study of Mus musculus with 5 samples.

Results

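The SR splicing factors described here are 10 mouse genes, Srsf1, Srsf2, Srsf3, Srsf4, Srsf5, Srsf6, Srsf7, Srsf11, Srrm1 and Srrm2. They were chosen by symbol, and the deposited table held a row for each of them among 21019 genes with values. All 10 passed the filter on low values, which kept 14631 genes. Levels are FPKM, read fragments scaled to gene length and library size, so that long and short genes can be set side by side. The RNA was bound to ribosomes of podocytes, the epithelial cells that wrap the capillaries of the kidney filter, and was isolated by translating ribosome affinity purification (TRAP), the pulldown of a GFP-tagged ribosomal protein, L10a. Podocin-driven Cre switched on the tagged protein, so podocytes alone should carry it. There were 3 Pfn1-KO libraries, from mice that were Pfn1 fl/fl and carried Pod-Cre and Rosa-Dtr fl, in which the same Cre deletes a loxP-flanked exon of the gene for profilin1, and 2 control libraries, from Pfn1+/+ mice. The controls carried Pod-Cre and Rosa-Dtr fl too, and both groups had, through a cross with TRAP mice, the tagged ribosome. All mice were 3 weeks old, and each library was a pool of 3 mice. The sample labels describe glomerular podocytes and a column kit, whereas the methods describe a pulldown from kidney cortex.

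SR proteins in the strict sense, here Srsf1 to Srsf7, carry an RNA recognition motif and a tail rich in arginine and serine, the RS domain. Srsf11, Srrm1 and Srrm2 are counted here as SR-related proteins. SR proteins bind short sequences in exons, many of them purine-rich, and help the spliceosome choose nearby splice sites. Some of them shuttle to the cytoplasm and hand mRNA to the export receptor Nxf1. Kinases of the Srpk and Clk families phosphorylate the RS domain, and phosphorylation moves the proteins between the cytoplasm, nuclear speckles and sites of transcription. SR genes also splice their own transcripts, often by taking in an exon that exposes the message to nonsense-mediated decay. A level per gene, as given here, does not separate such transcripts from those that make protein.

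Members differed in a sequence feature as well as in level, and the stretch richest in purines (A and G) of 4 coding sequences is shown because these genes had the largest differences each way by log2 fold change. Capitals mark purines. Each window is 50 bases of the longest annotated coding sequence (GENCODE vM21, GRCm38), read 5′ to 3′ on the gene's own strand. The Srsf11 window holds 46 purines in exon 12, at chr3:158012395-158012444 on the minus strand. The Srrm1 window holds 46 in exon 5, at chr4:135343885-135343934 on the minus strand. The Srsf6 window holds 35 in exon 4, at chr2:162933667-162933716 on the plus strand, and the Srsf3 window holds 36 in exon 3, at chr17:29038507-29038556 on the plus strand.
Srsf11: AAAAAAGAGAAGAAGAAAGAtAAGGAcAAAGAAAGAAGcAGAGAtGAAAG
Srrm1: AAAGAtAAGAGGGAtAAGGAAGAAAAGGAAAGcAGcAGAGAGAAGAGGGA
Srsf6: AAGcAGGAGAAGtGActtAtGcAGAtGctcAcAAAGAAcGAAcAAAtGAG
Srsf3: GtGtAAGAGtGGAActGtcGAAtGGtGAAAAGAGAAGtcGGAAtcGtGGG

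The libraries differed in ways that touch every result. Library sizes were 18186900 to 24871893 reads in Pfn1-KO libraries and 22822635 to 23704366 in controls. The number of genes above 0 was 20435 to 20980 in Pfn1-KO libraries and 6901 to 7528 in controls. An rRNA gene, CT010467.1, stood at 346, 133787 and 194 FPKM in Pfn1 KO1, KO2 and KO3, and at 291221 and 311036 FPKM in Ctrl1 and Ctrl2. The median log2 fold change over all genes tested was 1.75, so a member's fold change is best read against that shift. With genes at 0 in both controls set to a floor of 3 reads in each control library, this median was 2.66, and no SR member needed the floor. That floor was set for 5867 of the 14631 genes tested. Pfn1, the deleted gene, was not called lower in the libraries labelled Pfn1-KO. It stood at 41.9, 17.2 and 27.8 FPKM there and at 13.6 and 11.8 FPKM in controls (log2 fold change 1.05 ± 0.56 standard error (SE), adjusted p = 0.123, limma), and its log2 fold change was -0.70 after median-ratio scaling and -0.36 after quantile normalization. It was called higher without Pfn1 KO2 (1.36, adjusted p = 0.0463). A level per gene does not separate the reads of the deleted exon from those of other exons. The study reported loss of Pfn1 in primary podocytes, by real-time PCR, Western blotting and immunofluorescence, and in kidney sections by immunofluorescence. Directions below hold for libraries so labelled.

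Summed levels of cell markers differed between the groups for some cell types and overlapped for others. The 12 podocyte markers summed to 184.6 to 492.9 FPKM in Pfn1-KO libraries and 29.4 to 55.7 FPKM in controls, where Tcf21 was listed at 0 in both, and 10 of the 12 were called higher. Markers of the proximal tubule summed to 2110 to 4687 FPKM in Pfn1-KO libraries and 148.8 to 370.2 FPKM in controls, with 10 of 10 higher. Those of the distal tubule and thick ascending limb summed to 373.1 to 636.4 FPKM in Pfn1-KO libraries and 7.17 to 7.85 FPKM in controls, with 6 of 6 higher and Umod, Kcnj1 and Cldn16 at 0 in both controls. Endothelial markers summed to 45.0 to 63.1 FPKM in Pfn1-KO libraries and 9.01 to 9.85 FPKM in controls, with Kdr and Cdh5 at 0 in both controls, and mesangial markers summed to 55.6 to 106.1 FPKM in Pfn1-KO libraries and 2.38 to 42.7 FPKM in controls. Sums overlapped for the collecting duct (43.5 to 81.9 FPKM in Pfn1-KO libraries and 38.0 to 84.4 FPKM in controls) and for macrophages and blood (27.6 to 115.0 FPKM in Pfn1-KO libraries and 22.6 to 521.7 FPKM in controls). Called higher were 4 of 6 endothelial, 4 of 6 mesangial, 2 of 5 collecting duct and 1 of 6 macrophage and blood markers, none a larger share than the 70.1% of all genes tested that were called higher. A level of 0 in both controls was common, found for at least 5867 of the 14631 genes tested. The part of other cell types in the levels of the SR genes was not tested, and fewer cells of a type cannot be told apart from less RNA per cell.

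Across the 10 SR genes, 6 were called higher in Pfn1-KO libraries, 1 was called lower and 3 were not called (limma on log2(FPKM + 1), two-sided Benjamini-Hochberg adjusted p under 0.05 over all 14631 genes). Of all genes tested, 70.1% were called higher and 2.13% lower, so the count called higher was no larger than the background. The median log2 fold change of the 10 was 1.96, beside 1.75 for all genes. The members were therefore spread around the shift of all genes, with fold changes between -2.93 for Srsf11 and 3.74 for Srsf6. Srsf11 and Srrm1 had negative values and the other 8 positive ones, as the plot of levels by library shows. All 3 Pfn1-KO libraries lay above both controls for 6 of the 10, which held for 80.1% of all genes tested, and below both for 2, which held for 3.49%. Genes at 0 in both controls, at least 5867 of those tested, could not lie below them, and no member was among these. In a fit on only the 4764 genes above 0 in every library, 4 of 7 members were called higher, beside 51.2%, and 1 lower, beside 6.61%.

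**Figure D1:**
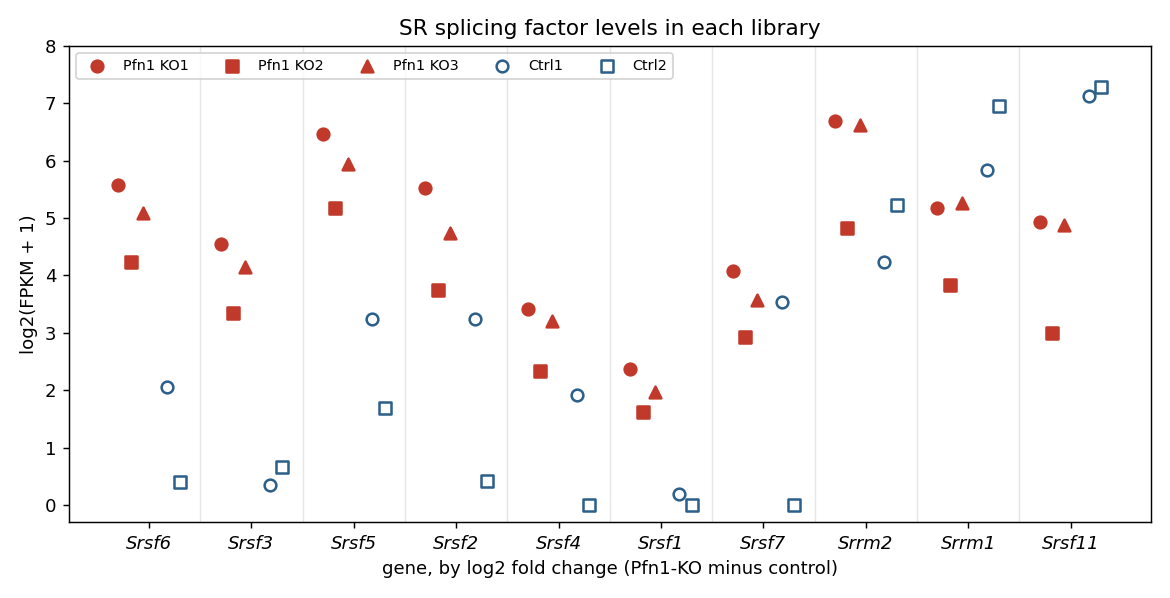
Level of each SR gene in each library, as log2(FPKM + 1) on the vertical axis, with genes ordered by their log2 fold change. Filled red symbols are the 3 Pfn1-KO libraries and open blue symbols the 2 control libraries. Filled symbols lie above both open ones for Srsf1 to Srsf6, and below both for Srsf11 and Srrm1.

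Srsf6 encodes an SR protein with a pair of RNA recognition motifs, and lies on chromosome 2 from 162931528 to 162937121. It stood at 46.8, 17.8 and 33.1 FPKM in Pfn1 KO1, KO2 and KO3 (5197, 2124 and 2897 reads), and at 3.15 and 0.319 FPKM in Ctrl1 and Ctrl2 (359 and 35 reads). The lowest Pfn1-KO library was thus above the higher control, and Srsf6 had the largest fold change of the 10 (log2 fold change 3.74 ± 0.68 SE, adjusted p = 0.00405). Srsf3, the smallest member by coding sequence and an adaptor for mRNA export, lies on chromosome 17 from 29032628 to 29043373. Its levels were 22.3, 9.14 and 16.8 FPKM in Pfn1-KO libraries (4073, 1795 and 2417 reads) and 0.267 and 0.577 FPKM in controls (50 and 104 reads). Both controls were low, and Srsf3 had the smallest adjusted p of the 10 (log2 fold change 3.51 ± 0.49 SE, adjusted p = 0.00184). Srsf3 lost the call under 1 of 15 alternatives, quantile normalization, where its log2 fold change was 1.20 (adjusted p = 0.0984).

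Srsf5, an SR protein whose message is known as an early response in regenerating rat liver, lies on chromosome 12 from 80945504 to 80950507. It stood at 87.3, 35.1 and 60.5 FPKM in Pfn1-KO libraries (8045, 3479 and 4385 reads), and at 8.52 and 2.22 FPKM in controls (805 and 202 reads). It was the most abundant of Srsf1 to Srsf7 in each Pfn1-KO library, and rose by 3.39 on the log2 scale (SE 0.69, adjusted p = 0.0060). Srsf2, which binds exonic enhancers and belongs to nuclear speckles, lies on chromosome 11 from 116849901 to 116853094. It stood at 45.2, 12.4 and 25.6 FPKM in Pfn1-KO libraries (3086, 913 and 1379 reads), and at 8.46 and 0.341 FPKM in controls (593 and 23 reads). Ctrl1 came close to Pfn1 KO2, and on a log scale the controls differed more from each other than the Pfn1-KO libraries did. The log2 fold change was 2.84 (SE 0.94, adjusted p = 0.0326), and the call was lost without Ctrl2 (1.43, adjusted p = 0.105) and without any single Pfn1-KO library (adjusted p = 0.0762 to 0.140). In all it was lost under 9 of 15 alternatives, among them a pseudocount of 0.1 (3.65, adjusted p = 0.0649) and median-ratio scaling (1.46, adjusted p = 0.275).

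Srsf4, a long SR protein with an extended RS domain, lies on chromosome 4 from 131873617 to 131901706. It stood at 9.61, 4.08 and 8.21 FPKM in Pfn1-KO libraries (791, 361 and 532 reads), and at 2.76 and 0 FPKM in controls (233 and 0 reads). The groups did not overlap, and the log2 fold change was 2.03 (SE 0.66, adjusted p = 0.0305). As for Srsf2, the call was lost without Ctrl2 (1.07, adjusted p = 0.122) and without any single Pfn1-KO library (adjusted p = 0.0638 to 0.126). It was lost under 9 of 14 alternatives, a pseudocount of 0.1 (3.70, adjusted p = 0.0725) and median-ratio scaling (adjusted p = 0.335) included. Srsf1, the prototype SR protein and a known oncoprotein, lies on chromosome 11 from 88047373 to 88053755. It was the least abundant member in Pfn1-KO libraries, at 4.15, 2.07 and 2.91 FPKM (547, 294 and 302 reads), and stood at 0.148 and 0 FPKM in controls (20 and 0 reads). It rose by 1.88 on the log2 scale (SE 0.35, adjusted p = 0.00449), a value that the pseudocount of 1 keeps small for a gene this low. With a pseudocount of 0.1 it was 4.27 (adjusted p = 0.0026), beside a median of 3.79 for all genes.

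Srsf7 is an SR protein with a zinc knuckle and, like Srsf3, an adaptor for mRNA export. It lies on chromosome 17 from 80200080 to 80207307. Its levels were 16.0, 6.65 and 10.9 FPKM in Pfn1-KO libraries (1310, 587 and 705 reads), and 10.6 and 0 FPKM in controls (892 and 0 reads). Ctrl1 lay within the Pfn1-KO range while Ctrl2 had no read, so the groups overlapped and the gene was not called (log2 fold change 1.76 ± 1.01 SE, adjusted p = 0.148). The result turned on which control was used. Without Ctrl1 it was called higher (3.53, adjusted p = 0.0010), and without Ctrl2 its log2 fold change was -0.0043 (adjusted p = 0.995).

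Srsf11, an SR-related protein that contacts the U2AF factor at the 3′ splice site, lies on chromosome 3 from 158010473 to 158036639. It was the only member called lower. It stood at 29.5, 7.02 and 28.3 FPKM in Pfn1-KO libraries (5751, 1475 and 4352 reads), and at 138.7 and 154.3 FPKM in controls (27770 and 29749 reads). The 2 controls were alike, and the highest Pfn1-KO library was far below the lower one. The log2 fold change was -2.93 (SE 0.75, adjusted p = 0.0134), and it ranged from -4.71 to -2.24 over 15 alternatives. The call was lost in 1 of these, rescaling to a sum of 1000000 over all genes (-2.24, adjusted p = 0.0562).

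Srrm1 encodes a splicing coactivator of nuclear speckles that joins SR proteins bound to exons with the spliceosome, and lies on chromosome 4 from 135320484 to 135353321. It stood at 35.2, 13.3 and 37.6 FPKM in Pfn1-KO libraries (5929, 2423 and 4987 reads), and at 56.1 and 123.6 FPKM in controls (9703 and 20589 reads). All 3 Pfn1-KO libraries lay below both controls, but the gene did not pass the test (log2 fold change -1.64 ± 0.70 SE, adjusted p = 0.0709). It was called lower after median-ratio scaling (-3.43, adjusted p = 0.0086), quantile normalization (-2.46, adjusted p = 0.0397), rescaling to nuclear protein-coding genes (-2.75, adjusted p = 0.0147) and without Ctrl1 (-2.20, adjusted p = 0.0275).

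Srrm2, the partner of Srrm1 and, with Son, a scaffold of nuclear speckles, lies on chromosome 17 from 23790532 to 23824741. It was the most abundant member in Pfn1 KO1 and KO3. Its levels were 101.9, 27.5 and 97.5 FPKM in Pfn1-KO libraries (30227, 8769 and 22769 reads), and 17.8 and 36.3 FPKM in controls (5427 and 10648 reads). Pfn1 KO2 lay between the controls, and the gene was not called (log2 fold change 1.32 ± 0.77 SE, adjusted p = 0.157). Without Pfn1 KO2 it was called higher (1.92, adjusted p = 0.0365), and its log2 fold change was -0.48 after median-ratio scaling (adjusted p = 0.578). Srrm1 and Srrm2 thus had opposite signs in the deposited FPKM, whereas both were negative after median-ratio scaling.

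Rank within a library needs no scaling, and it did not follow the fold change for every member. Among 11844 protein-coding genes tested, Srsf11 stood above 89.4%, 62.7% and 89.5% of genes in Pfn1-KO libraries and above 99.4% and 99.4% in controls. Srrm1 stood above 91.8%, 79.9% and 93.4% in Pfn1-KO libraries and above 98.2% and 99.1% in controls. Srsf5 stood above 97.8%, 93.8% and 96.8% in Pfn1-KO libraries and above 89.8% and 76.5% in controls. Srsf11 was thus among the most abundant messages of the controls and a common one in Pfn1-KO libraries. Srrm2 was high in every library, above 98.3%, 91.6% and 98.5% of genes in Pfn1-KO libraries and above 94.7% and 96.8% in controls. Srsf3 and Srsf6, like Srsf5, ranked higher in each Pfn1-KO library than in either control. Srsf2 in Ctrl1, above 89.8% of genes, lay within its Pfn1-KO range of 78.1% to 94.2%. Srsf1, Srsf4 and Srsf7 went the other way against Ctrl1. They stood above at most 31.4%, 60.7% and 76.2% of genes in Pfn1-KO libraries. In Ctrl1 they stood above 52.8%, 74.7% and 91.5%, and in Ctrl2 they had no read. Of these protein-coding genes, 49.6% in Ctrl1 and 45.8% in Ctrl2 were listed at 0, so a rank in a control counts those genes below it.

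The make-up of the SR set within a library gives a comparison that multiplying a library by a single factor does not change. Quantile normalization, which is no such factor, was not applied to it. The 10 genes summed to 397.8, 135.0 and 321.5 FPKM in Pfn1-KO libraries and to 246.5 and 317.7 FPKM in controls, so the sums overlapped. Srsf11, Srrm1 and Srrm2 together made up 41.9%, 35.4% and 50.8% of the sum in Pfn1-KO libraries and 86.2% and 98.9% in controls. The means were 42.7% in Pfn1-KO libraries and 92.6% in controls, a difference of -49.9 percentage points (exact permutation p = 0.1, two-sided, the smallest that 3 libraries against 2 allow). These 3 genes were set apart after their values had been seen. Leaving out each library in turn gave differences of -56.2 to -43.5 points. Pfn1 KO2, the Pfn1-KO library with much rRNA, had the lowest share of the 5. The part of rRNA content in these shares was not tested.

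Srsf11 alone accounted for 7.41%, 5.20% and 8.81% of the sum in Pfn1-KO libraries and 56.3% and 48.6% in controls. Srrm1 accounted for 8.84%, 9.89% and 11.7% in Pfn1-KO libraries and 22.7% and 38.9% in controls. Srrm2 went the other way, with 25.6%, 20.3% and 30.3% in Pfn1-KO libraries and 7.23% and 11.4% in controls. Srsf5 made up 21.9%, 26.0% and 18.8% in Pfn1-KO libraries and 3.45% and 0.70% in controls. For 9 of the 10 genes the shares of the groups did not overlap (exact permutation p = 0.1 each, unadjusted, and also the smallest possible). The shares of a library are parts of the same sum, so these 9 are not separate results. No count of this kind was made over all genes. By FPKM level, all 3 Pfn1-KO libraries lay above both controls for 80.1% of all genes tested and below both for 3.49%. Srsf7 was the exception, with 4.02%, 4.92% and 3.40% in Pfn1-KO libraries and 4.30% and 0% in controls (exact permutation p = 0.4).

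**Figure D2:**
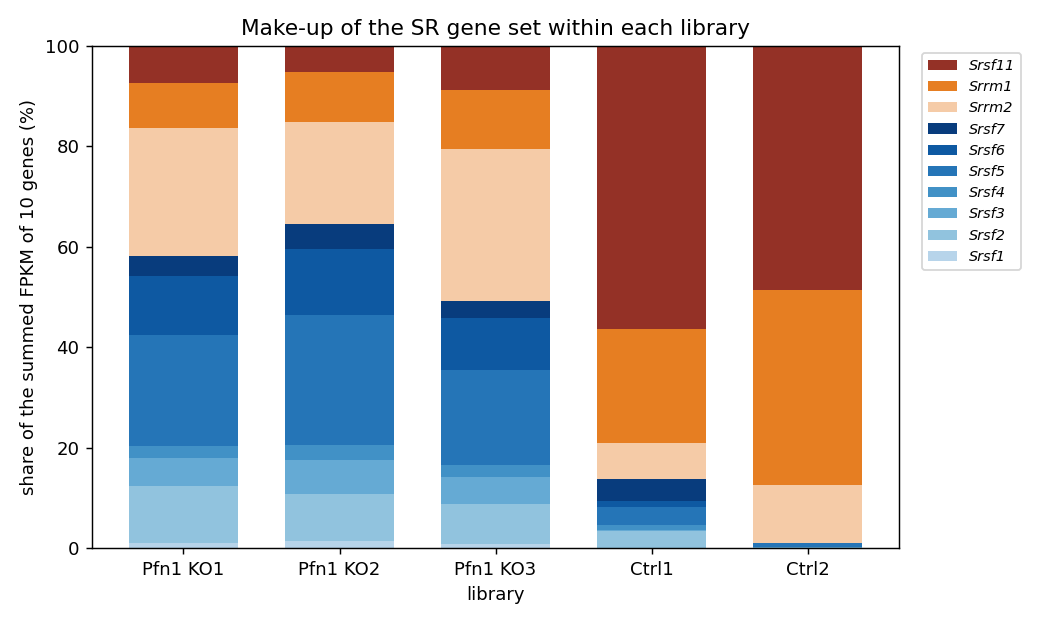
Share of the summed FPKM of the 10 SR genes that each gene took in each library (vertical axis, percent), with Pfn1-KO libraries at the left and controls at the right. Reds and oranges are Srsf11, Srrm1 and Srrm2, which together took 41.9%, 35.4% and 50.8% in Pfn1-KO libraries and 86.2% and 98.9% in controls, and blues are Srsf1 to Srsf7.

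Ratios of one member to another show how far the balance moved. The level of Srsf11 over that of Srsf5 was 0.338, 0.20 and 0.469 in Pfn1-KO libraries and 16.3 and 69.5 in controls. Over Srrm2, which was abundant in all libraries, it was 0.289, 0.256 and 0.291 in Pfn1-KO libraries and 7.78 and 4.25 in controls. The 3 Pfn1-KO libraries were alike in this last ratio although the level of Srsf11 in Pfn1 KO2 was 24.3% of the mean of the other two. The ratio of Srrm1 to Srrm2 was 0.345, 0.486 and 0.385 in Pfn1-KO libraries and 3.15 and 3.40 in controls. The speckle coactivator pair therefore stood with Srrm2 in excess in each Pfn1-KO library and with Srrm1 in excess in both controls.

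Pfn1 KO2 was the lowest Pfn1-KO library for 10 of 10 members, against 70.2% of protein-coding genes tested. The level in Pfn1 KO2 was 24.3% (Srsf11) to 58.7% (Srsf1) of the mean of the other two, with a median of 45.1%, and the median over protein-coding genes was 63.6%. Among controls, 6 of 10 members were lower in Ctrl2 than in Ctrl1. Srsf1, Srsf4 and Srsf7 had no read in Ctrl2, and no member was at 0 in Ctrl1. A count of 0 allows up to 3 reads, which is 0.023 FPKM for Srsf1, 0.0369 FPKM for Srsf4 and 0.037 FPKM for Srsf7 in Ctrl2, for counting error only.

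The choice of scaling moved the fold changes by amounts that differed between genes. The median log2 fold change over all genes was 1.75 in the deposited FPKM, 0.98 after median-ratio scaling, 3.01 after rescaling to nuclear protein-coding genes and -0.09 after quantile normalization. Srsf11 and Srrm1 were negative and Srsf2, Srsf3, Srsf5 and Srsf6 positive under each of these. After median-ratio scaling 3 members were called higher, beside 46.8% of all genes, and 2 lower, beside 6.18%. After quantile normalization 0 were called higher, beside 6.99% of all genes, and 2 lower, beside 12.3%. Under quantile normalization limma gave Srsf5, Srsf6 and Srsf3 log2 fold changes of 1.91 (adjusted p = 0.0733), 1.91 (adjusted p = 0.0692) and 1.20 (adjusted p = 0.0984), while Srsf1 and Srsf7 turned to -0.22 and -0.0054. Besides quantile normalization, the calls of Srsf5 and Srsf6 were lost with limma-voom on recovered reads (adjusted p = 0.0762 and 0.0909), and that of Srsf5 after median-ratio scaling (1.74, adjusted p = 0.0571).

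**Figure D3:**
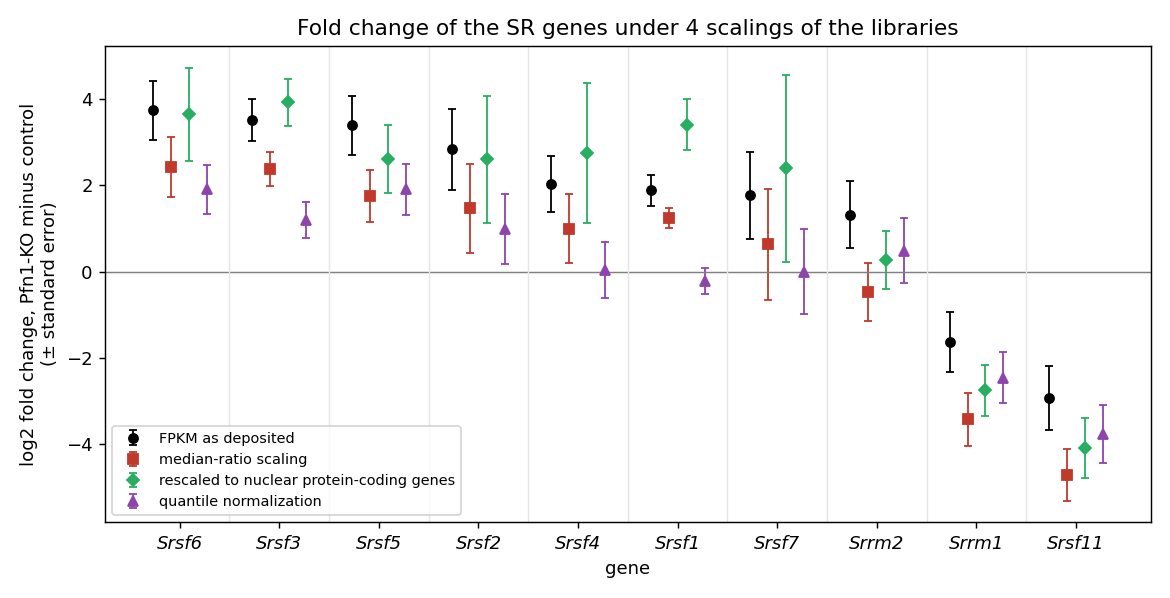
Log2 fold change of each SR gene, Pfn1-KO minus control, with its standard error, under 4 scalings of the libraries (symbols and colours). Srsf11 and Srrm1 lie below 0 under each, Srsf2, Srsf3, Srsf5 and Srsf6 above 0 under each, and Srsf1, Srsf7 and Srrm2 change sign under at least 1.

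Neighbouring arginine and serine codons, which code for the RS domain, define these genes, so their number is given as a description. The 10 coding sequences had a median of 16.7 such pairs per 100 codons against 0.77 for protein-coding genes tested. Srrm2, with 2703 codons, had 318 pairs, and Srsf4, with 491 codons, had 106. Srsf11 and Srrm1 had fewer for their length, 41 pairs in 511 codons and 53 in 923. The genes with the most pairs per codon, Srsf2 and Srsf7 (52 in 221 and 55 in 238), had positive log2 fold changes, and the genes with the fewest, Srsf11 and Srrm1, the negative ones. Across the 10 genes, which share the same 5 libraries, pairs per 100 codons and log2 fold change had a Pearson r of 0.75 and a Spearman rho of 0.62. Over 58 genes of related lists, described below, these were -0.38 and -0.41, so the sign was not that of the SR set.

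Purine content of the richest window went with the fold change across the 10 genes, and with coding length too. The richest 50-base window of the coding sequence, shown above for 4 genes, held 46 purines in Srsf11, 46 in Srrm1 and 44 in Srrm2. It held 43 in Srsf4, 39 in Srsf5, 36 in Srsf3, 35 in Srsf1, Srsf6 and Srsf7, and 32 in Srsf2. The median over 11840 protein-coding genes tested was 37, and 2.82% of them had more than 45. The longest unbroken run of purines was 27 bases in Srsf11, 26 in Srrm1 and 25 in Srrm2, and 9 to 19 in Srsf1 to Srsf7. Across the 10 genes the window's purine share and the log2 fold change had a Pearson r of -0.76 and a Spearman rho of -0.63, a description over genes that share the same 5 libraries and one domain type. A longer coding sequence has more windows from which to take the highest. Srrm2, Srrm1, Srsf11 and Srsf4, with 2703, 923, 511 and 491 codons, were the longest and held the richest windows. Of these, Srrm2 and Srsf4 had positive fold changes. The percentage of codons made of purines alone had a Pearson r of -0.42 and a Spearman rho of -0.48 across the 10 genes. Over 58 genes of related lists these were -0.75 and -0.73. The part of coding length was not tested. Purine content was chosen for this comparison with results over all genes known.

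**Figure D4:**
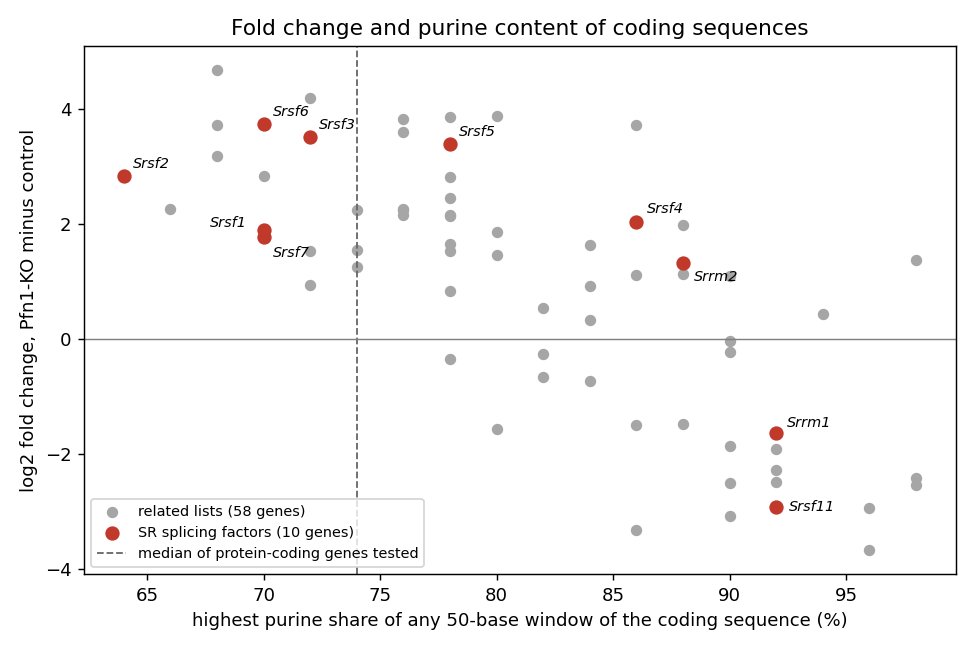
Log2 fold change, Pfn1-KO minus control, against the highest purine share of any 50-base window of the coding sequence (percent). Red points are the 10 SR genes and grey points 58 genes of related lists, and the dashed line is the median of protein-coding genes tested. Srsf11 and Srrm1 lie at the lower right, and Srsf2, Srsf3 and Srsf6 at the upper left.

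Genes that work with the SR proteins were also called in both directions. Over 5 related lists, 58 of 62 genes were tested, of which 25 (43.1%) were called higher, 14 (24.1%) lower and 19 neither. Their median log2 fold change was 1.19, beside 1.75 for all genes. Of all genes tested, 70.1% were called higher and 2.13% lower, but the lists were written with results of these data known. With only genes above 0 in every library, 15 of 48 were called higher, beside 51.2%, and 14 lower, beside 6.61%. In these genes the richest purine window was larger where the gene was called lower, with a median of 45.5 purines of 50, against 38 in those called higher. The Pearson r with the log2 fold change was -0.73 and the Spearman rho -0.74 over the 58 genes, again as a description. Lists and purine content were both chosen with results known, so these genes are no independent check of the SR set. No such correlation over all protein-coding genes is given here, and the part of coding length was not tested. Scaf1, named after its values were seen, was an exception, with 49 purines and a log2 fold change of 1.38 (adjusted p = 0.0338).

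Among the other SR proteins, Srsf9, a close relative of Srsf1, was called higher at 24.8, 13.5 and 13.9 FPKM in Pfn1-KO libraries and 5.16 and 5.12 FPKM in controls (log2 fold change 1.53, adjusted p = 0.0266), and its sign turned after median-ratio scaling (-0.12) and quantile normalization (-0.30). Srsf9 was not called with Pfn1 KO1 left out (1.26, adjusted p = 0.102) or with Pfn1 KO3 left out (1.66, adjusted p = 0.0761). Srsf10, which represses splicing when dephosphorylated, was not called, at 17.6, 7.43 and 14.5 FPKM in Pfn1-KO libraries and 6.40 and 38.6 FPKM in controls. The SR-like regulators Tra2a and Tra2b were not called (-0.26 and -0.66, adjusted p = 0.683 and 0.204 from limma), with 0.45 and 0.023 after rescaling to a sum of 1000000. Srsf12 was too low to be tested. These 4 tested genes had a median log2 fold change of -0.30, well under that of all genes. Of them 1 was called higher, beside 70.1% of all genes tested.

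Of 24 further SR-related proteins tested, 7 (29.2%) were called higher, 9 (37.5%) lower and 8 neither. Of all genes tested, 70.1% were higher and 2.13% lower. The median log2 fold change of the 24 was 0.67. The largest falls were those of Luc7l3, a relative of a yeast U1 snRNP protein, Arglu1, a coactivator rich in arginine and glutamate, and Ppig, a cyclophilin with an RS domain. Luc7l3 stood at 27.2, 10.2 and 30.2 FPKM in Pfn1-KO libraries and at 288.1 and 259.0 FPKM in controls (log2 fold change -3.68, adjusted p = 0.0040). Arglu1 stood at 31.1, 8.27 and 24.2 FPKM in Pfn1-KO libraries and at 235.6 and 161.1 FPKM in controls (-3.32, adjusted p = 0.0072), and Ppig at 22.6, 9.56 and 28.4 FPKM in Pfn1-KO libraries and at 194.4 and 137.0 FPKM in controls (-3.08, adjusted p = 0.0069). Their pattern was that of Srsf11, with both controls far above each Pfn1-KO library. The largest rises were those of Scaf8 (3.85), which binds the tail of RNA polymerase II, Scaf11 (3.72), a nuclear RS protein, and U2af2 (2.81), the large subunit of U2AF (adjusted p = 0.0017, 0.0016 and 0.0091). U2af2 lost its call under 5 of 14 alternatives, among them median-ratio scaling (1.62, adjusted p = 0.155), and Scaf8 after quantile normalization (1.47, adjusted p = 0.0718).

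Among 12 enzymes and carriers that act on SR proteins, 9 (75.0%) were called higher, 1 (8.33%) lower and 2 neither. The share called higher was near the 70.1% of all genes tested, and 2.13% of all genes were lower. The median log2 fold change of the 12 was 2.24. Clk1, a nuclear SR kinase, stood at 21.2, 9.66 and 17.4 FPKM in Pfn1-KO libraries and at 0 and 0.248 FPKM in controls (log2 fold change 3.87, adjusted p = 0.0015). The catalytic subunits of phosphatase 1 were also higher, with Ppp1ca at 22.8, 38.9 and 16.5 FPKM in Pfn1-KO libraries and listed at 0 in both controls, and Ppp1cc with a log2 fold change of 3.72 (adjusted p = 0.0018). Ppp1cc lost its call after quantile normalization (1.75, adjusted p = 0.0913) and with limma-voom on recovered reads (adjusted p = 0.0542). Srpk2, a cytoplasmic SR kinase, was the one called lower, at 6.46, 3.16 and 6.45 FPKM in Pfn1-KO libraries and 11.5 and 22.7 FPKM in controls (-1.49, adjusted p = 0.0395). That call was lost without Ctrl2 (-1.02, adjusted p = 0.127) and without any single Pfn1-KO library (adjusted p = 0.0868 to 0.107).

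Exon junction complex and export genes had 3 of 8 (37.5%) called higher and 1 (12.5%) lower, beside 70.1% and 2.13% of all genes tested. Their median log2 fold change was 1.6, or 1.76 with genes at 0 in both controls set to the floor. The export receptor Nxf1, which Srsf3 and Srsf7 bind, stood at 24.4, 9.21 and 15.2 FPKM in Pfn1-KO libraries and at 0.0476 and 0.247 FPKM in controls (3.82, adjusted p = 0.0016), and was not called after quantile normalization (1.43, adjusted p = 0.0706). Its partner Nxt1 stood at 6.13, 2.38 and 3.60 FPKM, and Magohb at 1.69, 3.18 and 1.21 FPKM, in Pfn1-KO libraries, and both were listed at 0 in controls. The sign of Magohb turned after quantile normalization (-0.11). Rbm8a, a core subunit of the exon junction complex, was called lower, at 12.6, 12.6 and 9.49 FPKM in Pfn1-KO libraries and 22.7 and 56.4 FPKM in controls (-1.56, adjusted p = 0.0425). That call was lost without Ctrl2 (-0.93, adjusted p = 0.145) and without any single Pfn1-KO library (adjusted p = 0.0839 to 0.157).

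Nonsense-mediated decay genes, which act on the unproductive transcripts of SR genes, had 5 of 10 called higher and 3 lower, with a median of 1.54. Of all genes tested, 70.1% were called higher and 2.13% lower. The kinase Smg1 (3.60) and the helicase Upf1 (2.82) were higher (adjusted p = 0.0020 and 0.0113). Upf1 lost its call under 7 of 14 alternatives, among them median-ratio scaling (1.60, adjusted p = 0.225) and quantile normalization (0.89, adjusted p = 0.433), and Smg1 after quantile normalization (1.43, adjusted p = 0.0625). Upf3b (-2.94), Upf2 (-2.54) and Upf3a (-1.87), which bridge Upf1 to the exon junction complex, were lower (adjusted p = 0.0068, 0.0079 and 0.0141), though Upf3a lost its call without Pfn1 KO1 (adjusted p = 0.0614), without Pfn1 KO3 (adjusted p = 0.0526) and after rescaling to a sum of 1000000 (-1.22, adjusted p = 0.27), as did Upf2 after the same rescaling (-1.85, adjusted p = 0.109). As in the SR set, partners of one pathway were called in opposite directions, which the plot by list shows.

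**Figure D5:**
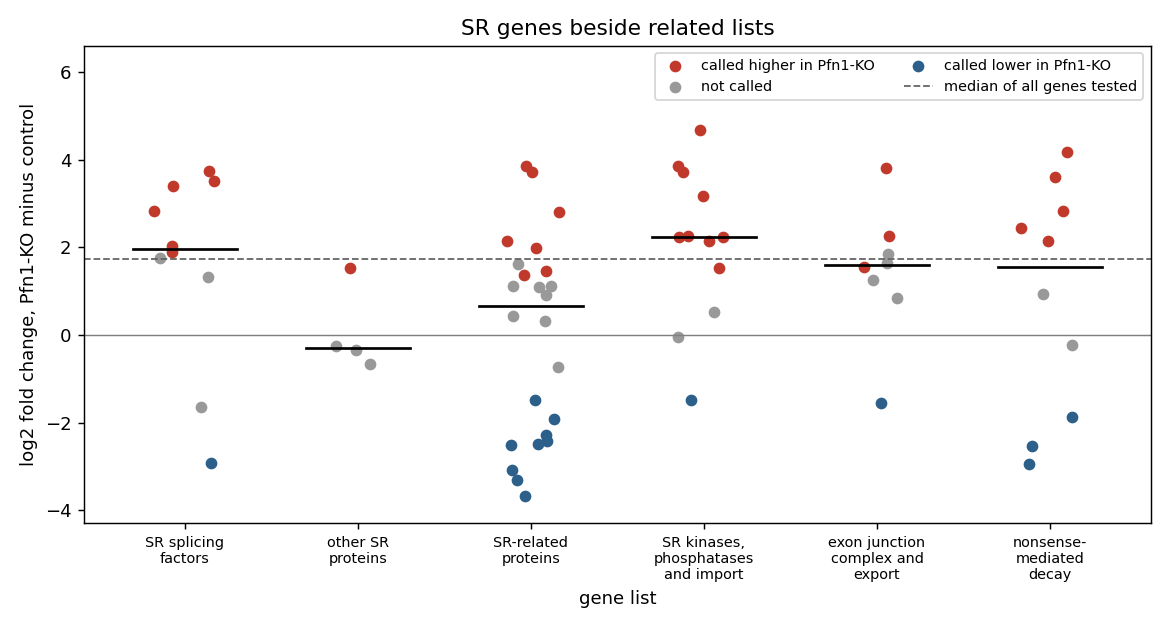
Log2 fold change, Pfn1-KO minus control, of each gene tested in the SR set and 5 related lists, with red for genes called higher, blue for genes called lower and grey for genes not called. Black bars are list medians, 1.96 for the SR set, and the dashed line is the median of all genes tested, 1.75.

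Some members share exons with other genes, and the sources used here do not say whether strand was used in counting or how reads with several matches were treated. Srsf2 shares 748 bases of its 2958 with Mettl23 and Mfsd11, and Srsf4 shares 1532 of 3561 with Gm12992, all on the opposite strand. Reads there could be told apart only if strand was used in counting. Srsf1 shares 98 bases with Gm11508 and Srrm2 shares 4 with Elob. No exon of Srsf3, Srsf5, Srsf6, Srsf7, Srsf11 or Srrm1 overlapped another annotated gene. The annotation lists 19 transcripts of Srsf11, of which 5 are protein-coding, 3 are marked for nonsense-mediated decay and 11 retain an intron, and 15 of Srrm1, with 6, 2 and 6. Of 10 annotated for Srsf3, 1 is protein-coding, 2 are marked for decay and 4 retain an intron. Which of these the reads came from was not analysed here.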

How the data were processed

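RNA-Seq of TRAP samples (3 Pfn1-KO, 2 control, each pooled from 3 mice) was used. Per the study, fastp 0.20 trimmed the reads, STAR 2.7.9 mapped them to GRCm38.p6 (GENCODE vM25), featureCounts 2.0.0 gave reads per gene, and a gene was kept where 20% or more of the samples had 6 or more reads. The deposited values are FPKM made by the authors. Their methods name TPM, but column sums differed between libraries. Library names are those that the study gives to identical values. The names do not say which label replicate a column is.

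Gene names, lengths and coding sequences came from GENCODE vM21. FPKM times length times library size gave whole reads (tolerance 0.02) for 20414 of 20414 genes matched with their version, or 100%, the members included. A level of 1 read in a 2-kilobase gene is 0.0201 to 0.0275 FPKM.

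Groups were compared with limma 3.58.1 in R 4.3.3, with an empirical Bayes mean-variance trend, on log2(FPKM + 1) for the 14631 genes that reached 1 FPKM in 2 or more of the 5 libraries. Fold changes on this scale understate changes of low genes. Shares were compared by an exact permutation test over libraries. The p-values measure the spread between these pooled libraries. Alternatives were other pseudocounts (0.1 and 5), filters and scalings, array weights, limma-voom on recovered reads and leaving out each library. The fit was also run on simulated data, with all libraries drawn from the mean levels of the Pfn1-KO libraries. Those data lacked the difference in make-up between the groups, so they cannot show how the fit behaves under it. Named genes were all members, Pfn1, the other SR proteins and up to 3 genes each way of each related list with the largest change among those called. A single-gene result that this rule takes in is not reported here. Members, lists and sequence features were chosen with earlier results of these data known. Tables and figures were made in Python 3.11.15.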

Additional observations from a re-analysis of the deposited data

How the results depend on the processing

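Fits were repeated under 15 alternatives. Percentages in brackets are the shares of all genes tested that were called the same way in the same fit. Members called higher (6 in the deposited FPKM, 70.1%) numbered 3 after median-ratio scaling (46.8%) and 0 after quantile normalization (6.99%). They numbered 2 with limma-voom on recovered reads (49.7%) and 4 after rescaling to nuclear protein-coding genes (55.8%). With rescaling to a sum of 1000000 they were 7 (75.4%), and with array weights 8 (83.1%). Members called lower (1, 2.13%) numbered 2 after median-ratio scaling (6.18%), quantile normalization (12.3%) and rescaling to nuclear protein-coding genes (3.99%). They numbered 0 after rescaling to a sum of 1000000 (0.67%). Leaving out each Pfn1-KO library in turn gave 4 to 5 members called higher (44.1% to 73.1%) and 1 lower (0.93% to 1.67%). With 1 control left, the median log2 fold change of the members was 3.17 without Ctrl1 and 1.61 without Ctrl2. The medians of all genes tested were 1.78 and 1.72 in these fits. Genes of the related lists called higher (25) numbered 15 with only genes above 0 in every library (51.2%). They numbered 13 after median-ratio scaling, 4 after quantile normalization and 14 after rescaling to nuclear protein-coding genes, with the shares of all genes given above. When each Pfn1-KO library was left out they numbered 16 to 27. Those called lower (14) numbered 4 after rescaling to a sum of 1000000 and 6 to 11 when each Pfn1-KO library was left out. Signs turned after median-ratio scaling for Srrm2 (-0.48), Srsf9 (-0.12) and Pfn1 (-0.70), and after quantile normalization for Srsf1 (-0.22), Srsf7 (-0.0054), Srsf9 (-0.30), Magohb (-0.11) and Pfn1 (-0.36). They turned after rescaling to a sum of 1000000 for Srsf10 (0.38), Tra2a (0.45) and Tra2b (0.023), and with array weights for Srsf10 (0.047) and Tra2a (0.10). When each library was left out, Tra2a ran from -0.50 to 0.17 (without Pfn1 KO2), Srsf7 from -0.0043 (without Ctrl2) to 3.53, and Srsf10 from -1.56 to 0.86 (without Ctrl2). The cause of each was not tested. The fit on genes above 0 in every library gave no value for Srsf1, Srsf4 and Srsf7, which had no read in Ctrl2. No paired analysis was possible because the columns carry no replicate number of the labels and share only 1 number between the groups.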
